A study of Mus musculus with 10 samples.

Results

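Folliculin, its partners FNIP1 and FNIP2, the Rag GTPases, the Ragulator anchor LAMTOR1 and the MiT/TFE transcription factors form the lysosomal branch of nutrient signalling to mTOR complex 1. The 10 genes Flcn, Fnip1, Fnip2, Lamtor1, Rraga, Rragc, Rragd, Tfeb, Tfe3 and Mitf were taken by symbol from the 13492 genes of the deposited table, and all 10 passed the minimum set for testing. The mice were on a C57BL/6 background, were 6 months old and had gone 3 h without food, and RNA came from the tibialis anterior, a fast muscle of the shin. There were 5 libraries labelled Lrtm1 KO and 5 labelled Lrtm1 WT, which the series' design text calls floxed controls. Litter 108 gave 2 knockout and 1 control libraries, litter 110 gave 1 and 2, and litter 112 gave 2 and 2. The labels name neither the Cre driver, nor the deleted part of Lrtm1, nor the sex of the mice. They also do not state that every library is 1 animal, and the spread behind the p-values may therefore be partly technical.

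At the surface of the lysosome, the Ragulator complex holds a heterodimer of RagA or RagB with RagC or RagD, which recruits mTOR complex 1 when amino acids are present. Folliculin with an FNIP protein is the GTPase-activating protein for RagC and RagD. In that state RagC and RagD present TFEB and TFE3 to mTOR complex 1 for phosphorylation, which keeps these factors in the cytoplasm. When they enter the nucleus they induce lysosomal and autophagy genes through promoter elements with the core CACGTG, and Flcn and Rragd are among the genes known to be induced in return. In muscle the folliculin complex is also known as a partner of AMPK and a brake on oxidative metabolism.

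The promoters are shown because MiT/TFE factors bind CACGTG and these genes are both their regulators and, in part, their targets. The windows are RefSeq's (GRCm38.p6), cover 250 bases before a transcript start and were found for all 10 genes, in 15 windows. CACGTG reads the same on both strands, and it lay in 3 of the 15 windows, those of Fnip1, Rragc and Lamtor1, against 6.02% of all 32851 windows. The longer form TCACGTGA, which contains CACGTG and is held by 0.785% of all windows, lay in none of the 15. The 3 matches with 30 bases on either side, and the whole window of Flcn, the gene with the largest difference, read 5′ to 3′ on the strand of the gene, with CACGTG in capitals.
Fnip1 (chr11:54438074-54438139, plus strand, match beginning 75 bases before the start): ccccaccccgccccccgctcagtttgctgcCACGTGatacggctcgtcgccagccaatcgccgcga
Rragc (chr4:123917291-123917356, plus strand, match beginning 112 bases before the start): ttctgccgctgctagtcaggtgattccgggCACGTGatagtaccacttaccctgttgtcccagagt
Lamtor1 (chr7:101905739-101905804, plus strand, match beginning 68 bases before the start): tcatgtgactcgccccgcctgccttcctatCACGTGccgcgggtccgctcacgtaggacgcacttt
Flcn (chr11:59810040-59810289, minus strand, no match): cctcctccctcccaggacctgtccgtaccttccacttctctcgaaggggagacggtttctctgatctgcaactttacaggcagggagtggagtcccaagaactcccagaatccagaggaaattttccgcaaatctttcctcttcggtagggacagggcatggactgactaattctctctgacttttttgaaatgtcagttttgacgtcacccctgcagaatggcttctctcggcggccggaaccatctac
All 3 matches are part of TATCACGTG on one strand or the other. This form was searched for after the windows were seen, so its presence in all 3 is no test. On either strand it is held by 35 of the 1978 windows with CACGTG, or 0.107% of all windows. A match describes these letters and shows no binding, and its absence says only that the letters are not in the window.

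Values are adjusted log2 CPM (a log-scaled read share) as deposited, with library medians between 3.35 and 3.36 and an unknown read depth. The authors' adjustment had taken litter and 3 further, unnamed terms out of the values, so the printed SDs leave that variation out. The targeted gene, Lrtm1, was higher and not lower under the knockout label, at 6.12 ± 0.10 (SD, n = 5) against 5.68 ± 0.07 (SD, n = 5), so every direction below is between libraries as labelled. Of the 12223 genes tested, 41 (0.335%) passed an adjusted p of 0.05 in limma with the removed terms counted as spent degrees of freedom, and 1054 (8.62%) passed when they were counted as free. An unadjusted p under 0.05 was reached by 1232 genes (10.1%). In 16.2% of all genes the groups were fully separate. The median absolute log2 difference over all genes was 0.079. All 6 myofibre markers were abundant and higher in the libraries labelled knockout (log2 differences from 0.01 to 0.18), and none passed the threshold. All 5 adipocyte markers were lower in the libraries labelled knockout (log2 differences from -2.21 to -0.05, none past the threshold), with a summed level of 67.0 to 77.4 CPM against 77.3 to 92.6, as were all 8 macrophage markers (-0.24 to -0.06, none past it), with 42.6 to 46.4 CPM against 43.4 to 51.2. Of the 5 adipocyte markers 4 had an unadjusted p under 0.05, beside 10.1% of all genes, and 3 passed with the removed terms counted as free, while no macrophage marker did either. Also lower were all 3 satellite, all 3 tested Schwann, 3 of 4 fibro-adipogenic, 2 of 4 endothelial and 2 of 4 mast cell markers. No marker of endothelial, fibro-adipogenic, satellite, Schwann or mast cells, and no myofibre marker, passed in either fit or had an unadjusted p under 0.05. Their part in the results below was not tested, and in whole tissue fewer cells of a type and less RNA per cell cannot be told apart.

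The genes are named by pathway and symbol, but the set was chosen by a reading of the differences between libraries labelled knockout and control, so those differences are given as a description. Flcn was higher in every library labelled knockout than in any control, by 0.53 on the log2 scale, and was the 1 member of 10 past the threshold, where 0.335% of all genes were, 0.27% on the higher and 0.0655% on the lower side. With the removed terms counted as free, Flcn was joined by Tfeb on the lower side, where 8.62% of all genes passed, 5.15% higher and 3.48% lower. Fnip1, Fnip2, Rragc and Rragd were higher and Rraga, Lamtor1, Tfe3 and Mitf lower by less than Flcn, and none of these passed in either fit. The median log2 difference over the 10 genes was 0.04, against -0.004 over all genes tested. The groups were separate in 4 of the 10, with Flcn and Rragc higher and Tfeb and Rraga lower, beside 16.2% of all genes, 8.56% with the libraries labelled knockout on the higher side and 7.63% on the lower. In all, 7 of the 10 had the same sign in all 3 litters, beside 47.9% of all genes. The adjustment had been made with the libraries of all litters together, so differences by litter, here and below, are not fully independent repeats.

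**Figure D1:**
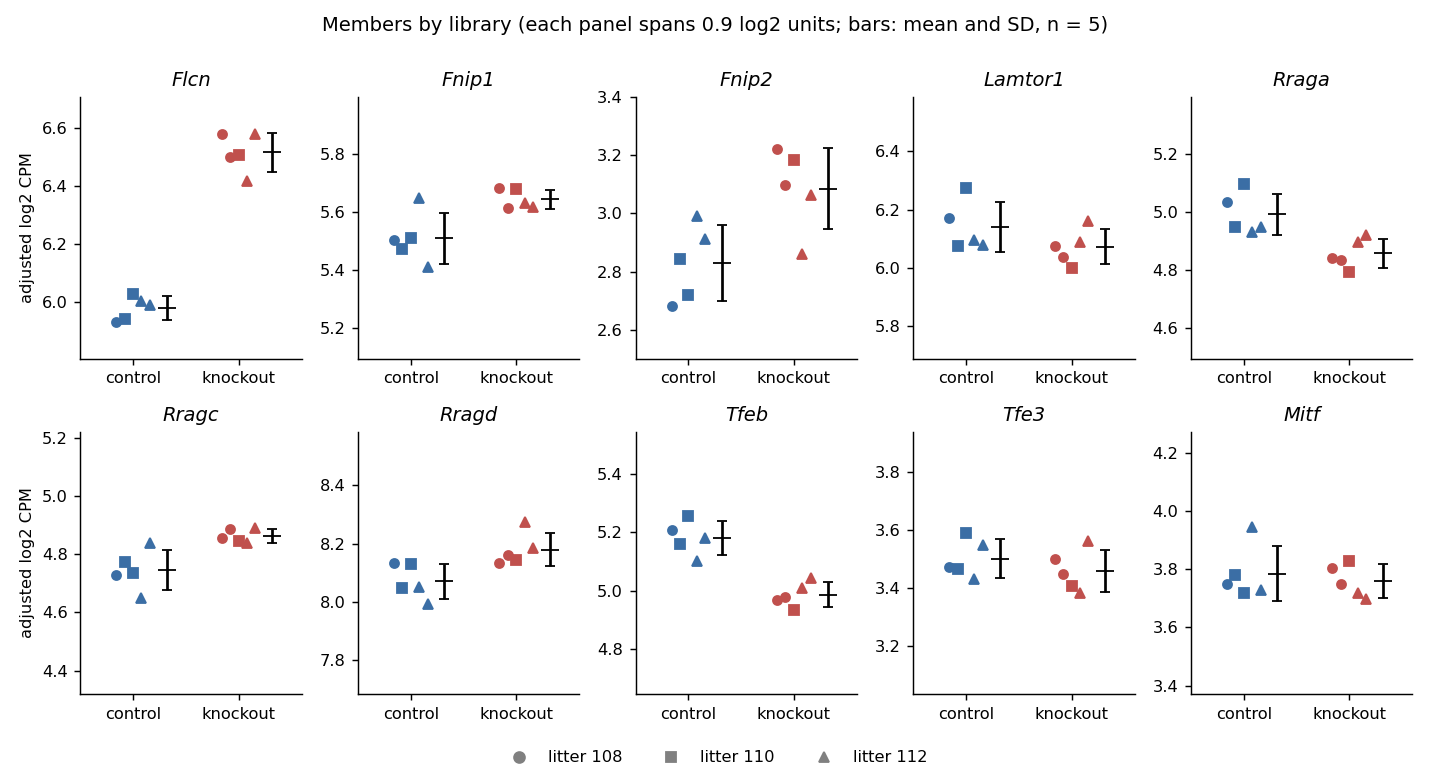
Adjusted log2 CPM of each gene in each library, by group (x axis) and litter (marker shape), with the mean and SD of 5 libraries per group as bars; every panel spans the same log2 range. Flcn in the libraries labelled knockout (6.42 to 6.58) lies above the controls (5.93 to 6.03), and Tfeb (4.93 to 5.04) lies below them (5.10 to 5.26).

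Flcn (ENSMUSG00000032633) encodes folliculin, the tumour suppressor of Birt-Hogg-Dubé syndrome. It lies on chromosome 11 from 59791408 to 59810016 on the minus strand. Its level was 6.58, 6.50, 6.51, 6.42 and 6.58 log2 CPM in knockout replicates 1 to 5. In control replicates 1, 3, 4, 5 and 6 it was 5.93, 5.94, 6.03, 6.01 and 5.99 log2 CPM. All 5 libraries labelled knockout lay above all 5 controls, and in these adjusted values the gap between the groups was wider than the spread within either. That spread leaves out the variation that the adjustment removed. The group levels were 6.52 ± 0.07 and 5.98 ± 0.04 (SD, n = 5 each), a log2 difference of 0.53 (SE 0.06), or 1.45-fold. By litter, the difference was 0.61 (litter 108), 0.52 (litter 110) and 0.50 (litter 112). By the size of its upward difference it ranked 98 of the 12223 genes tested.

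The start of Gm16062 (ENSMUSG00000087249), annotated as an antisense transcript, lies 64 bases from that of Flcn on the opposite strand, and the genes do not overlap. Gm16062 was named after its values were seen. It runs from 59810080 to 59818491 on chromosome 11, so the printed Flcn window covers its first bases. Gm16062 stood at 2.70, 2.85, 2.91, 3.07 and 2.61 log2 CPM in knockout replicates 1 to 5. In control replicates 1, 3, 4, 5 and 6 it stood at 2.55, 2.51, 2.28, 2.54 and 2.29. The groups did not overlap, as in 16.2% of all genes. The log2 difference was 0.39 (SE 0.13, limma adjusted p = 0.322, or 0.0488 when the removed terms are counted as free). The other 11 tested genes with a start within 500 kb of Flcn differed by -0.27 to 0.10. Of these 11, 2 also had separate groups, and none passed in either fit. Among the 11 are Cops3, a subunit of the COP9 signalosome (-0.01), and Srebf1, a regulator of lipid synthesis (0.10). They, too, were chosen after their values were seen. The labels do not say whether the counting used the strand.

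**Figure D2:**
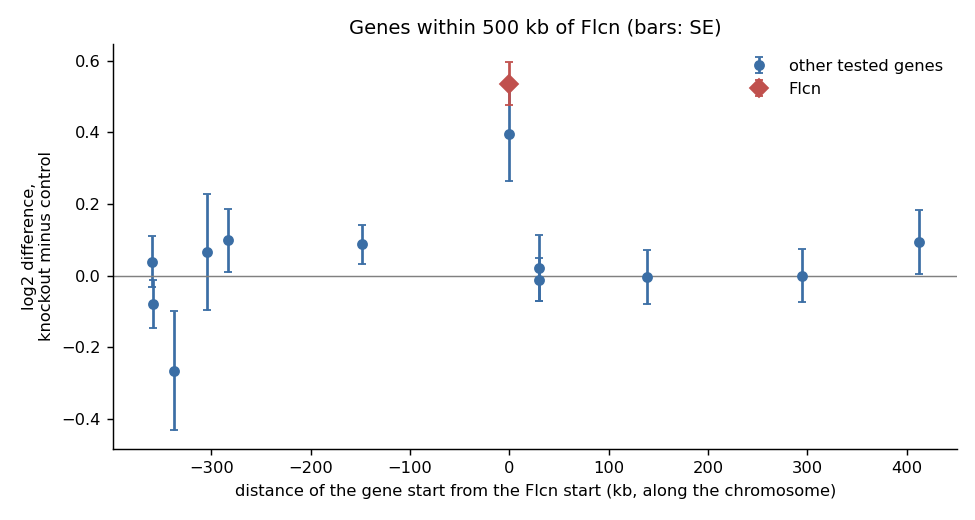
Log2 difference between libraries labelled knockout and control (y axis, bars are SEs) of the tested genes with a start within 500 kb of the Flcn start, by distance along the chromosome in kb (x axis). Flcn (0.53) and Gm16062 (0.39), whose starts are 64 bases apart, lie above the other 11 genes, which range from -0.27 to 0.10.

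FNIP1 and FNIP2 are the alternative partners through which folliculin acts on Rag GTPases and AMPK. Fnip1 was at 5.68, 5.61, 5.68, 5.63 and 5.62 log2 CPM in knockout replicates 1 to 5, and at 5.50, 5.47, 5.51, 5.65 and 5.41 in control replicates 1, 3, 4, 5 and 6. Control replicate 5 lay within the range of the libraries labelled knockout and the other 4 controls lay below it. The log2 difference was 0.13 (SE 0.07). Fnip2 was at 3.22, 3.10, 3.18, 2.86 and 3.06 log2 CPM in knockout replicates 1 to 5, and at 2.68, 2.84, 2.72, 2.99 and 2.91 in the same order of controls. Knockout replicate 4 lay among the controls, and the other 4 libraries labelled knockout lay above every control. The log2 difference of Fnip2 was 0.26 (SE 0.11), and it ran from 0.01 in litter 112 to 0.40 in litter 110 and 0.48 in litter 108. Within a library, and not scaled by transcript length, Fnip2 minus Fnip1 was -2.56 ± 0.12 log2 units in the libraries labelled knockout. In the controls it was -2.68 ± 0.13 (SD, n = 5 each), with overlapping ranges. Flcn minus Fnip1 was 0.87 ± 0.07 against 0.47 ± 0.08, with no overlap, a pair added after its values were seen.

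Among the Rag GTPases, the RagC and RagD genes were slightly higher and the RagA gene slightly lower. Rragc, which encodes RagC, was at 4.85, 4.89, 4.84, 4.84 and 4.89 log2 CPM in knockout replicates 1 to 5 and at 4.73, 4.77, 4.74, 4.65 and 4.84 in control replicates 1, 3, 4, 5 and 6. The lowest library labelled knockout and the highest control were equal to the second decimal, so the groups were separate by less than that, and the log2 difference was 0.12 (SE 0.07). Rragd, the RagD gene, was at 8.13, 8.16, 8.14, 8.27 and 8.18 log2 CPM in knockout replicates 1 to 5 and at 8.13, 8.05, 8.13, 8.05 and 7.99 in the controls. Control replicate 1 lay within the range of the libraries labelled knockout by less than the second decimal, and the log2 difference was 0.11 (SE 0.06). By litter it was 0.01 (litter 108), 0.06 (litter 110) and 0.21 (litter 112). Rragd minus Rragc within a library was 3.32 ± 0.07 log2 units in the libraries labelled knockout and 3.33 ± 0.11 in the controls (SD, n = 5 each), so their ratio differed by less than its spread.

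Rraga, the RagA gene, moved the other way. It was at 4.84, 4.83, 4.80, 4.90 and 4.92 log2 CPM in knockout replicates 1 to 5 and at 5.03, 4.95, 5.10, 4.93 and 4.95 in control replicates 1, 3, 4, 5 and 6. Every control lay above every library labelled knockout, the nearest by about 0.01, and the log2 difference was -0.13 (SE 0.07). By litter it was -0.20 (litter 108), -0.23 (litter 110) and -0.03 (litter 112). Lamtor1, which encodes the lipid-anchored subunit that ties Ragulator to the lysosome, ranged from 6.00 to 6.16 log2 CPM in the libraries labelled knockout and from 6.07 to 6.28 in the controls. These ranges overlapped, with a log2 difference of -0.07 (SE 0.07). Lamtor1 overlaps Lrrc51, which is in the table, on the opposite strand, so its reads are uncertain if strand was not used.

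Of the MiT/TFE factors, Tfeb differed most. TFEB is the member best known for inducing lysosomal and autophagy genes, and its gene lies on chromosome 17 from 47737030 to 47792419. Tfeb was at 4.97, 4.98, 4.93, 5.01 and 5.04 log2 CPM in knockout replicates 1 to 5 and at 5.21, 5.16, 5.26, 5.10 and 5.18 in control replicates 1, 3, 4, 5 and 6. All 5 libraries labelled knockout lay below all 5 controls. The group levels were 4.99 ± 0.04 and 5.18 ± 0.06 (SD, n = 5 each), a log2 difference of -0.20 (SE 0.06). By litter the values were -0.23 (litter 108), -0.28 (litter 110) and -0.12 (litter 112). Tfe3, a close paralogue that folliculin also holds in the cytoplasm, ranged from 3.38 to 3.56 in the libraries labelled knockout and from 3.43 to 3.59 in the controls, a log2 difference of -0.04 (SE 0.08). Tfe3 lies on the X chromosome. The sum of 4 Y-linked genes was between 104 and 117 CPM in the libraries labelled knockout and between 96.3 and 119.6 in the controls. Xist, which female cells express, was not among the genes analysed here, so every library had the pattern of male mice. Mitf, best known as the factor of melanocytes and osteoclasts, ranged from 3.70 to 3.83 and from 3.72 to 3.95, a log2 difference of -0.03 (SE 0.08). Both overlapped between groups and changed sign between litters. None of 8 melanocyte and osteoclast markers was among the genes analysed here. Tfe3 minus Tfeb within a library was -1.53 ± 0.06 log2 units in the libraries labelled knockout and -1.68 ± 0.04 in the controls. Mitf minus Tfeb was -1.23 ± 0.10 against -1.40 ± 0.15 (SD, n = 5 each). The ranges of the first pair met at the second decimal without overlapping (-1.63 to -1.47 against -1.74 to -1.63), and those of the second overlapped.

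**Figure D3:**
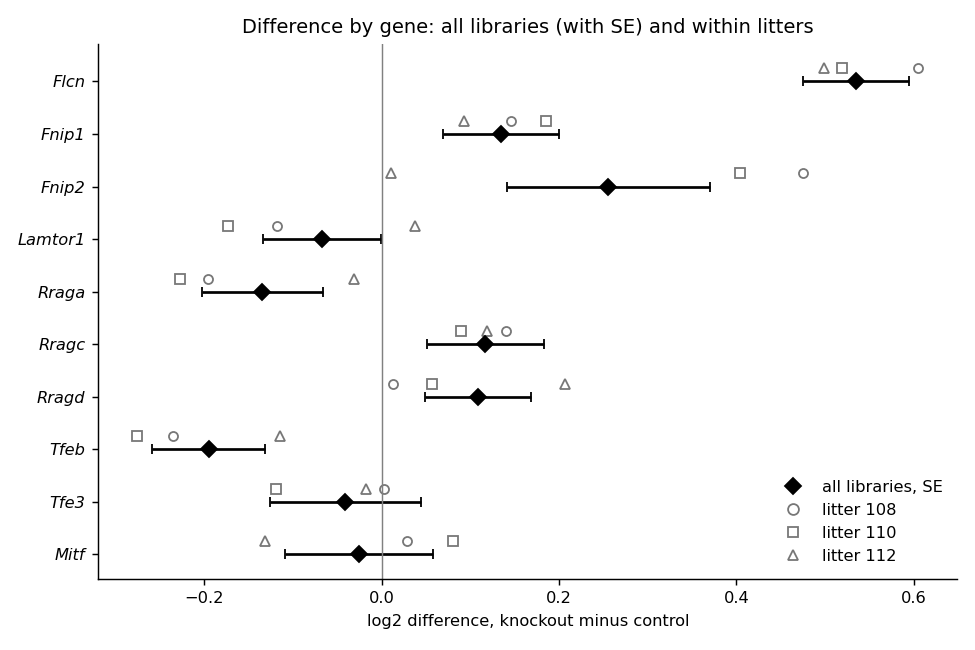
Log2 difference between libraries labelled knockout and control (x axis) for each gene (y axis), over all libraries with its SE (black diamonds) and within each of the 3 litters (open markers, no error). Flcn lies at 0.53 with litters from 0.50 to 0.61, and Tfeb at -0.20 with litters from -0.28 to -0.12.

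The within-library pairs above are not scaled by transcript length. Scaled by the longest transcript, Tfe3 minus Tfeb was -2.96 in the libraries labelled knockout and -3.12 in the controls. In the same order, Mitf minus Tfeb was -2.29 and -2.46, and Fnip2 minus Fnip1 -2.78 and -2.90. Flcn minus Fnip1 was 1.68 and 1.28, and Rragd minus Rragc 2.54 and 2.55. Below, levels are compared between genes as CPM per kb of the longest transcript in the annotation, although another may be the one expressed. On that scale Rragd was the most abundant in the controls, at 53.2 ± 2.20 CPM per kb (SD, n = 5), followed by Lamtor1 at 36.5 ± 2.23, Rraga at 19.7 ± 0.98, Flcn at 17.7 ± 0.51 and Tfeb at 15.5 ± 0.62. Below them came Rragc at 9.10 ± 0.43, Fnip1 at 7.29 ± 0.45, Mitf at 2.83 ± 0.19, Tfe3 at 1.79 ± 0.08 and Fnip2 at 0.977 ± 0.09. Over all 10 libraries the ranges of neighbours in this order overlapped only for Rraga and Flcn. Flcn stood at 25.7 ± 1.18 CPM per kb in the libraries labelled knockout, above Rraga at 17.9 ± 0.63. With the median length of protein-coding transcripts in place of the longest, a check added after seeing the data, 4 of the leading 5 changed places, with Lamtor1 at order 1, Tfeb at 2, Rragd at 3 and Rraga at 5. Flcn stayed at 4, and the order from Rragc down to Fnip2 held.

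Within families, Rragd made up 66.9% ± 0.74 of the summed per-length level of Rraga, Rragb, Rragc and Rragd in the libraries labelled knockout and 64.5% ± 0.82 in the controls (SD, n = 5 each). Rraga made up 20.9% ± 0.45 against 23.8% ± 0.44, and Rragb 0.621% ± 0.02 against 0.655% ± 0.03. Tfeb made up 75.0% ± 0.90 of the MiT/TFE level against 77.0% ± 1.16, and Fnip1 87.3% ± 0.90 of the FNIP level against 88.2% ± 0.95. These shares carry the same uncertainty of transcript length. Length also went with the differences over all genes. The shortest of 5 length classes, which holds Rraga and Lamtor1, had a median of -0.04, and the longest, which holds Fnip1, Fnip2 and Tfe3, one of 0.05. Flcn lies in the middle class, where the median was -0.01, and Tfeb in the second, where it was -0.03. The part of length in these differences was not tested.

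Over the 10 libraries, the genes with values most like those of Flcn were Vegfa, Idua and Nt5dc3, with Pearson correlations of 0.998, 0.998 and 0.997. The libraries share the adjustment and the group difference, and 454 of the 10876 genes compared had a correlation of at least 0.9. The log2 differences of Vegfa, Idua and Nt5dc3 were 0.33, 0.30 and 0.31.

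Of 151 other genes of the pathway that were tested, in 8 lists, 1 rose, none fell and 150 did not pass, beside 0.335% of all genes. With the removed terms counted as free, 11 were higher and 4 lower, beside 8.62% of all genes. Nos1, which encodes the neuronal nitric oxide synthase of muscle and has been linked to TFEB there, rose from 7.68 ± 0.05 to 8.03 ± 0.08 log2 CPM (SD, n = 5 each). Its log2 difference was 0.35 (SE 0.06, limma adjusted p = 0.0489). Every library labelled knockout lay above every control, as in 8.56% of all genes. The Nos1 call was lost without any 1 of control replicates 1, 3, 5 or 6 or knockout replicates 1, 2, 3 or 5 (adjusted p from 0.0517 to 0.181), and over all alternatives the adjusted p ran from 0.00399 to 0.334. It belongs to the list of 13 glucose and mitochondrial genes linked to TFEB in muscle, of which 10 lay above 0 with a median log2 difference of 0.05. Of the rest of that list none passed, and with the removed terms counted as free Nos1 and Hk2 passed. Hk2, the gene of the glucose-phosphorylating enzyme hexokinase 2, named after its values were seen, differed by 0.33 (SE 0.09; limma adjusted p = 0.208, or 0.032 in that fit). Ppargc1a, which encodes the mitochondrial regulator PGC-1α and is named after its values were seen, had the largest difference there, 0.81 (SE 0.21; adjusted p = 0.212, or 0.0523 with the removed terms counted as free). In limma with the removed terms counted, 4 of these 13 genes had an unadjusted p under 0.05, beside 10.1% of all genes.

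**Figure D4:**
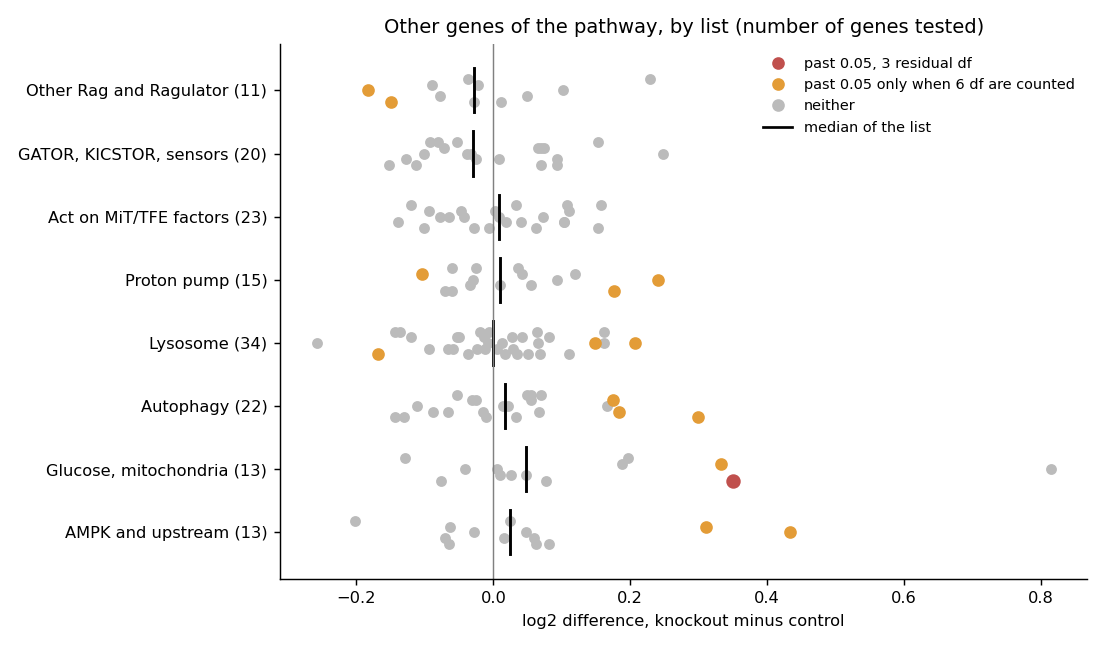
Log2 difference between libraries labelled knockout and control (x axis) of each tested gene in the 8 pathway lists (y axis, with the number tested), where colour gives the fit in which a gene passed an adjusted p of 0.05 and black bars are list medians. Nos1 at 0.35 is the 1 gene past it with the removed terms counted, and list medians lie between -0.03 and 0.05.

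Of the other 7 lists no gene passed, and the genes with an unadjusted p under 0.05 in limma were 3 of 11 for the Rag and Ragulator list, 1 of 20 for the GATOR list and 1 of 23 for the list acting on MiT/TFE factors. They were 2 of 15 for the proton pump, 3 of 34 for the lysosome, 3 of 22 for autophagy and 2 of 13 for AMPK, all beside 10.1% of all genes. With the removed terms counted as free, 2 Rag and Ragulator genes passed, both lower. The proton pump and the lysosome each had 2 higher and 1 lower, autophagy had 3 higher and AMPK 2 higher. In that fit 8.62% of all genes passed, 5.15% higher and 3.48% lower.

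Closest to the set, none of 11 other Rag, Ragulator and lysosomal amino acid transport genes passed, and 7 were below 0, the median being -0.03. Lamtor2, a Ragulator subunit, was at 4.61 ± 0.01 log2 CPM against 4.79 ± 0.01 (SD, n = 5 each), a log2 difference of -0.18 (SE 0.06; limma adjusted p = 0.326, or 0.0052 when the removed terms are counted as free). The lysosomal amino acid transporter gene Slc36a1 differed by 0.23 (adjusted p = 0.426). Of 20 genes of GATOR1, GATOR2, KICSTOR and the amino acid sensors, which set the state of RagA, none passed in either fit, and the median was -0.03. The S-adenosylmethionine sensor gene Bmt2 differed by -0.15 (adjusted p = 0.617). Of 23 genes whose products phosphorylate, dephosphorylate, bind or export MiT/TFE factors, or act in those steps, none passed in either fit, with a median of 0.01. The kinase gene Akt1 differed by 0.15 (adjusted p = 0.443) and Rptor, the subunit of mTOR complex 1 that the Rag GTPases recruit, by 0.16 (adjusted p = 0.544).

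The known proton pump, lysosome and autophagy targets of MiT/TFE factors had medians near that of all genes, -0.004. The list of glucose and mitochondrial genes linked to TFEB in muscle, given above, had a median of 0.05. Of 15 proton pump genes, 8 lay above 0 and none passed, with a median log2 difference of 0.01. The pump subunit genes Atp6v1a (0.24, limma adjusted p = 0.253) and Atp6v0d1 (0.18, adjusted p = 0.362) came closest. In both, every library labelled knockout lay above every control. Groups were separate in 3 of the 15 on the higher side and in 2 on the lower, beside 8.56% and 7.63% of all genes. Of 34 genes of lysosomal enzymes and membrane proteins, 17 lay above 0 and none passed, with a median of -0.001. The cholesterol exporter gene Npc1 differed by 0.21 (adjusted p = 0.287) and Gaa, the lysosomal glycogen-degrading enzyme, by 0.15 (adjusted p = 0.413). Of 22 autophagy genes, 12 lay above 0 and none passed, with a median of 0.02. Ulk1, the kinase that starts autophagy, was at 6.92 ± 0.07 log2 CPM against 6.62 ± 0.06 (SD, n = 5 each). Its groups did not overlap, as in 16.2% of all genes. Its log2 difference was 0.30 (SE 0.06; adjusted p = 0.0886), and it passed in 3 alternatives: with the removed terms counted as free (0.00615), with a replicate block in place of litter (0.0488) and without knockout replicate 4 (0.0473). Over all 17 alternatives its adjusted p ran from 0.00615 to 0.395. Gabarapl1, an autophagosome adaptor gene, differed by 0.18 (adjusted p = 0.355).

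Of 13 tested genes of AMPK subunits and upstream kinases, 8 lay above 0 and none passed, with a median log2 difference of 0.02. Camkk2, a kinase that activates AMPK in response to calcium, was at 2.34 ± 0.08 log2 CPM against 1.91 ± 0.05 (SD, n = 5 each), a log2 difference of 0.43 (SE 0.11; limma adjusted p = 0.215). Prkag2, a regulatory subunit of AMPK, differed by 0.31 (SE 0.09; adjusted p = 0.253). In both genes the groups did not overlap, and both passed with the removed terms counted as free (adjusted p = 0.0052 and 0.0156). They were the only 2 of the 13 with separate groups, beside 16.2% of all genes. Of all genes, 8.62% passed in that fit.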

How the data were processed

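TRIzol RNA of tibialis anterior went into oligo-dT libraries with a stranded kit, per the labels' protocols; fastp, kallisto and limma are named without versions, per the submitters' processing notes. The authors deposited adjusted log2 CPM, and the labels do not state the terms of the adjustment. Read totals were not used here, so the depth behind each value is unknown. In every gene the litters had equal means once genotype was in the fit, and the residuals spanned 3 dimensions where litter and genotype would leave 6. The adjustment therefore removed litter and 3 further terms. Printed SDs leave out that variation.

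Differences were tested with limma 3.58.1 in R 4.3.3 (lmFit, then eBayes with a trend, two-sided), fitting genotype, litter and the 3 empty directions, over the 12223 genes whose mean log2 CPM reached 0. A gene passed at a Benjamini-Hochberg adjusted p under 0.05. The fit that counts 6 residual degrees of freedom is given beside it. The fit was also run on simulated data with litter and 3 random terms removed. The further terms that the authors removed are unknown and may differ from random ones. The members and gene lists were chosen with earlier results of these data known. The text names all 10 members, Lrtm1, from each of 8 pathway lists up to 4 genes past the threshold (or else the 2 of smallest p), and the 3 genes most correlated with the member of largest difference. Where that rule names a gene with no values in the text, it is not reported here. Others are said to be chosen after their values were seen. Alternatives changed the residual degrees of freedom, the expression minimum, the variance model, the scaling and the block, and left out each library in turn. Positions and transcript lengths are from GENCODE M21 (GRCm38), matched for 99.1% of tested genes, and promoters from RefSeq (GRCm38.p6).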

Additional observations from a re-analysis of the deposited data

Results flagged for a closer look

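In the 10 members, the named pathway genes and the within-library pairs, 60 groups of 5 libraries were checked for 1 library standing apart. The rule marks about 1 in 20 groups of independent normal values. The adjusted values are not independent and the pairs reuse values of the members, so the rate by chance here is unknown. Mitf in control replicate 5 was 3.95 log2 CPM, where the other 4 controls lay between 3.72 and 3.78. Rragd minus Rragc in knockout replicate 4 was 3.43 log2 units, where the other 4 libraries labelled knockout lay between 3.28 and 3.30.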

How the results depend on the processing

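The count of 41 genes past the threshold (33 higher, 8 lower) was 1054 (629 and 425) with 6 residual degrees of freedom, 1 (0 and 1) without a variance trend and 128 (99 and 29) with a replicate block in place of litter. The lower count was 5 at a mean log2 CPM of at least 2. Leaving out 1 library gave 8 to 60 (6 to 49 higher, 2 to 15 lower), lowest without control replicate 1 (8) and knockout replicate 3 (11), which also takes litter 108 or 110 out of the comparison, then control replicates 6 (17) and 5 (20). The 1 pathway gene past the threshold became 15 with 6 degrees of freedom, 2 with the replicate block and 0 without the minimum, at the higher minimum or without the trend, and 0 to 2 without 1 library. The 1 member past it became 2 with 6 degrees of freedom and 0 without the trend (Flcn adjusted p = 0.231), and stayed at 1 with each library left out in turn. Flcn differed by 0.51 to 0.57 without 1 library. The adjustment had been made with all 10 libraries, so a library left out still shaped the values of the rest. Of 4 shared replicate numbers, 3 join libraries of the same litter and number 4 does not. With litter already removed, same-numbered libraries correlated at -0.85, 0.45, 0.03 and -0.50. Among them, 0 of 4 libraries labelled knockout and 1 of 4 controls correlated best with their own number. Removing litter makes the deviations within a litter cancel, which pushes correlations within it down. These values therefore cannot show whether a pairing beyond litter exists. The depth behind each value is unknown.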

Other observations

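The promoters gave a readout that the gene lists do not use. It was chosen after the data were seen. Among tested genes other than the 10, 179 held TCACGTGA, a long form of the MiT/TFE element, in a window of 250 bases before a start. Their median log2 difference was 0.004, against -0.005 in 9233 genes with a window and no match, and none passed the threshold in either direction in limma with the removed terms counted. The 955 genes with the shorter CACGTG had a median of 0.004, against -0.006 in 8457 without it, and 3 of them were higher and none lower past the threshold, beside 0.27% higher and 0.0655% lower of all genes.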
